A study of Mus musculus with 12 samples.

Results

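Vdr, Rxra, Rxrb, Cyp27b1 and Cyp24a1 encode the vitamin D receptor, its main DNA-binding partners and the enzymes that make and destroy its ligand, and their transcripts were followed through the mouse femur with and without a deletion of Dlx3. These 5 genes were taken by their symbols from 19510 symbols listed in either of the deposited tables, 1 table for the metaphysis and 1 for the diaphysis. They were picked with the RPKM values of both regions in view, so their levels are given as a description and no test is read for them. RPKM is a read count scaled to transcript length and to the mapped reads of the library, so levels of genes are compared per length.

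The RNA came from 5-week-old male mice of mixed strain background. The metaphysis is the flared end of the bone beside the growth plate, and the diaphysis is its shaft. Wild-type mice (WT, Dlx3+/+ in the series title) were compared with mice labelled Dlx3Oc-cKO (cKO below), a conditional knockout of Dlx3, a homeobox transcription factor gene of bone-forming cells. The labels do not spell out "Oc" or name the Cre driver, so the cells in which Dlx3 was removed are not described here. The 4 groups (metaphysis WT, metaphysis cKO, diaphysis WT, diaphysis cKO) had 3 libraries each, 12 in all. No label says in words that the libraries of a group are separate animals, although the 12 sample titles each begin with a different number. The p-values therefore measure the spread between these libraries, which may be between animals or technical.

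Vitamin D is hydroxylated in the liver and then by the enzyme encoded by Cyp27b1, mainly in the kidney, to the hormone calcitriol. Calcitriol binds the vitamin D receptor, which pairs with a retinoid X receptor (RXR) on DNA, typically at paired hexamers separated by 3 bases, and changes the transcription of genes for calcium and phosphate transport and bone matrix. Cyp24a1, among the genes most strongly induced by the active receptor, encodes the enzyme that breaks calcitriol down. In bone the receptor is found in cells of the osteoblast lineage, where calcitriol raises the osteoclast differentiation factor and several matrix genes.

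To show the sequence just before the start of a member that differed between genotypes beside 2 that differed little or were hardly detected, the 250 bases upstream of the start are printed for Vdr, for the first of 2 listed starts of Rxrb, and for Cyp27b1. They are reference sequence from RefSeq on build GRCm38.p6 (Vdr chr15:97908297-97908546, minus strand; Rxrb chr17:34031562-34031811, plus strand; Cyp27b1 chr10:127047996-127048245, plus strand), read 5′ to 3′ on the gene's strand. Capitals mark GC boxes, GGGCGG or its complement CCGCCC, the core of the sites of Sp-family factors.
Vdr: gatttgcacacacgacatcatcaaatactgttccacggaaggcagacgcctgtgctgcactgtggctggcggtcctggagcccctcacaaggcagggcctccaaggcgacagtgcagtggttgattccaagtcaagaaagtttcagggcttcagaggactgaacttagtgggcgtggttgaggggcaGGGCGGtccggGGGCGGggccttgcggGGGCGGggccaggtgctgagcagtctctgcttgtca
Rxrb: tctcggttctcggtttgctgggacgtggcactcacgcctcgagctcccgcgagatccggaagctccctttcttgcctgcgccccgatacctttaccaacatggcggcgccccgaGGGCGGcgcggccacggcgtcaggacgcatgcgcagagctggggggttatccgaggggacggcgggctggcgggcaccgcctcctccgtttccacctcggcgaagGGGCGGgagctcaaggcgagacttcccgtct
Cyp27b1: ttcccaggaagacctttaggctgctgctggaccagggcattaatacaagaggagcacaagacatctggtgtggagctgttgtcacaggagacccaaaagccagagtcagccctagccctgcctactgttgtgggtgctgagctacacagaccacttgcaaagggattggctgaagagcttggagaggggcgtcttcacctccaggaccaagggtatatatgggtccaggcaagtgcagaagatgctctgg
The Vdr window held 3 GC boxes, the Rxrb window 2 and the Cyp27b1 window 0, where 32.7% of 32851 promoter windows of this length held at least 1. GC content was 61.2% for Vdr, 69.2% for Rxrb and 54.4% for Cyp27b1. The letters TAATT or AATTA, a core that many homeodomain proteins bind, were in none of these 3 windows and in 25.0% of all windows. Receptor hexamers (AGGTCA with A or G allowed in the first place, G or T in the third and C or G in the fifth) occurred 3 times in the Vdr window, 0 times in that of Rxrb and 1 time in that of Cyp27b1, against 60.3% of all windows with any. A direct repeat of such hexamers 3 bases apart was in 0 of these windows and in 0.222% of all windows. Both strands were searched and overlapping matches each counted, motif by motif. A match of letters is a description of the sequence and not a site.

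The targeted gene checks the labels. Dlx3 (mm9 chromosome 11, 94981403 to 94986610) measured 8.37, 8.90 and 10.1 RPKM in metaphysis WT and 1.98, 2.80 and 3.24 RPKM in metaphysis cKO. In the diaphysis it measured 3.22, 7.64 and 13.1 RPKM in WT and 0.763, 1.55 and 1.17 RPKM in cKO. All cKO libraries lay below all WT libraries of their region. Library depth, worked out from the spacing of low values, was 24.6 to 34.7 M reads (M, mega) in the metaphysis and 18.5 to 53.9 M in the diaphysis. Diaphysis WT replicate 1 had the highest globin share and the lowest osteoblast markers of the 12 libraries. Globins took 32.6% of its summed RPKM (13.5% to 26.5% elsewhere), and 6 osteoblast markers (Alpl, Col1a1, Runx2, Sp7, Ibsp, Bglap) summed to 2589 RPKM there, the lowest of the 12. Diaphysis cKO replicate 1 came next in globin share, at 26.5%, and had the lowest depth, 18.5 M reads. Diaphysis differences of the tested members, and of Enpp1, are given with and without WT replicate 1.

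Vdr, the receptor itself (mm9 chromosome 15, 97684856 to 97741061, minus strand), was the member that differed most between genotypes. Metaphysis WT libraries read 20, 13.3 and 17.1 RPKM, a mean of 16.8 ± 3.38 (SD, n = 3), and metaphysis cKO libraries 51.1, 70.0 and 45.3 RPKM, a mean of 55.5 ± 12.9 (SD, n = 3). The lowest cKO library was above the highest WT library by more than the whole range of the WT group, and the ratio of the cKO to the WT mean was 3.31. As log2(RPKM + 0.1), the cKO minus WT difference was 1.71 ± 0.20 (SE), the 24th highest of 12641 genes tested. The median of all tested genes was -0.036. In the order of all symbols by mean RPKM within a group, Vdr stood at percentile 80.3 in metaphysis WT and 95.1 in metaphysis cKO.

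In the diaphysis Vdr read 4.41, 10.3 and 19.5 RPKM in WT, a mean of 11.4 ± 7.61 (SD, n = 3), and 23.5, 28.4 and 35.96 RPKM in cKO, a mean of 29.3 ± 6.29 (SD, n = 3). The groups again did not overlap, but the WT libraries were spread over more than a 4-fold range and the highest came close to the lowest cKO library. The ratio of means was 2.57 and the log2 difference 1.58 ± 0.48 (SE), the 21st highest of 12540 genes tested. Without diaphysis WT replicate 1 the log2 difference was 1.02 ± 0.29, and without WT replicate 3 it was 2.08 ± 0.36. The percentile of Vdr among symbols was 72.3 in diaphysis WT and 89.0 in diaphysis cKO.

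Set side by side across the 2 tables, which were normalized separately, Vdr was highest in metaphysis cKO, then in diaphysis cKO, metaphysis WT and diaphysis WT. Only the last 2 groups overlapped with their neighbour in that order. The genotype difference in the metaphysis exceeded that in the diaphysis by 0.14 ± 0.59 (log2, SE), and by 0.69 ± 0.38 without diaphysis WT replicate 1. In whole bone pieces, more cells that express a gene and more RNA of it per cell cannot be told apart, for Vdr or for any gene named here.

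**Figure D1:**
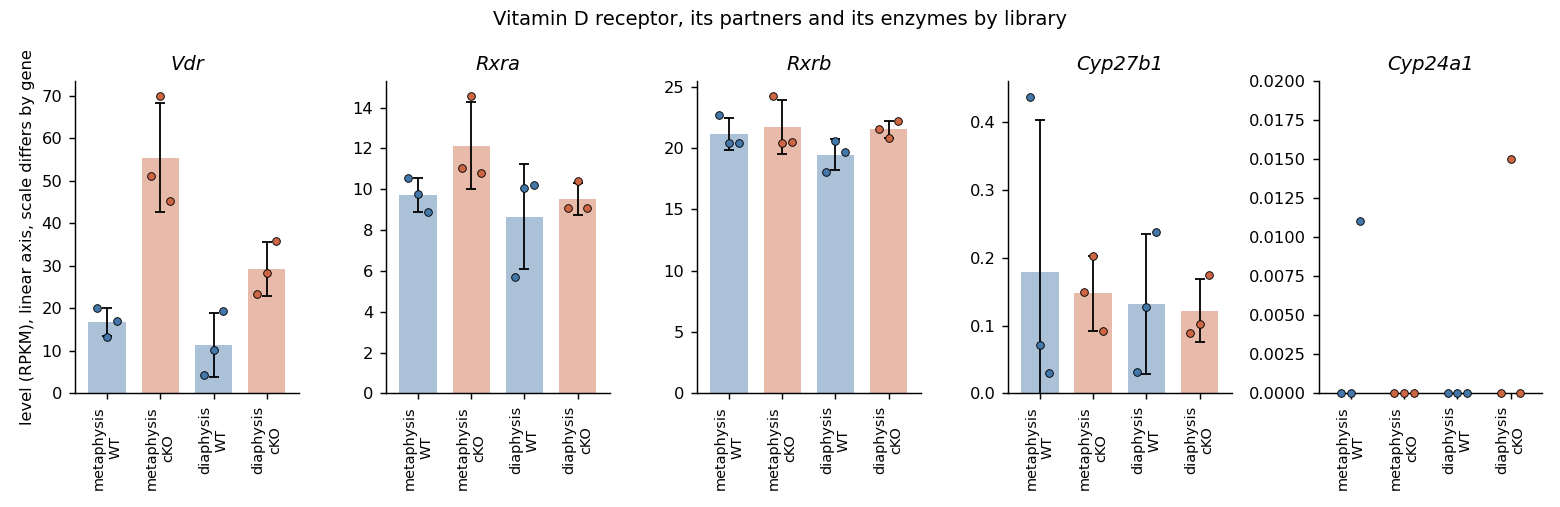
RPKM of Vdr, Rxra, Rxrb, Cyp27b1 and Cyp24a1 in the 12 libraries, with 1 panel and 1 linear axis per gene. Points are libraries (blue WT, red cKO), bars are group means and whiskers 1 SD (n = 3), both left out for Cyp24a1, which is listed at 0 in 10 libraries. Vdr is the panel in which cKO points lie well above WT points in both regions (45.3 to 70.0 against 13.3 to 20 RPKM in the metaphysis).

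The partners differed far less between genotypes than Vdr did, as values set side by side. RXR proteins are the shared partners of many nuclear receptors, and RXR alpha and RXR beta are the widely expressed forms. Rxra (mm9 chromosome 2, 27531960 to 27618477) read 10.5, 9.78 and 8.87 RPKM in metaphysis WT and 11.1, 14.6 and 10.8 RPKM in metaphysis cKO. All cKO values were above all WT values by a narrow margin, with means of 9.73 ± 0.833 and 12.1 ± 2.11 RPKM (SD, n = 3) and a log2 difference of 0.31 ± 0.14 (SE). In the diaphysis Rxra read 5.69, 10.1 and 10.2 RPKM in WT and 9.07, 10.4 and 9.09 RPKM in cKO. There the groups overlapped and differed by 0.18 ± 0.25 (log2, SE), and leaving out 1 library at a time gave values from -0.092 (without WT replicate 1) to 0.32.

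Rxrb (mm9 chromosome 17, 34168757 to 34175338) was the steadiest member, with every library between 18.1 and 24.2 RPKM. It read 22.7, 20.4 and 20.4 RPKM in metaphysis WT and 24.2, 20.4 and 20.5 RPKM in metaphysis cKO, overlapping groups that differed by 0.035 ± 0.10 (log2, SE). In the diaphysis it read 18.1, 20.5 and 19.7 RPKM in WT and 21.5, 20.8 and 22.2 RPKM in cKO. These groups did not overlap, and the difference of 0.15 ± 0.13 (log2, SE) was about the size of its error and became 0.096 without WT replicate 1. Rxrb is listed as 4 transcript rows, summed here, and how shared reads were assigned to them is not given in the sources used. The row with the highest mean held 34.9% to 59.0% of the gene in the metaphysis and 39.0% to 55.8% in the diaphysis. Taken alone, that row gave a metaphysis difference of -0.10, so the small Rxrb difference there has no settled sign. Vdr and Rxra have 1 row each. For both RXR genes the difference between the regions' genotype effects was smaller than its error, 0.12 ± 0.30 for Rxra and -0.11 ± 0.15 for Rxrb (log2, SE). Without diaphysis WT replicate 1 these became 0.40 ± 0.20 for Rxra, larger than its error, and -0.062 ± 0.15 for Rxrb.

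Receptor and partners were also compared within each library. The ratio of Vdr to the sum of Rxra and Rxrb, all in RPKM, was 0.602, 0.440 and 0.583 in metaphysis WT and 1.45, 2.001 and 1.45 in metaphysis cKO. In the diaphysis it was 0.186, 0.335 and 0.652 in WT and 0.768, 0.908 and 1.15 in cKO. Neither region showed overlap, and the metaphysis changed from fewer receptor than RXR transcripts per length to more. A ratio within a library does not depend on its total, so the scaling to mapped reads cancels. The mix of cells in a library can still move it. Markers of bone and blood cells shifted between the metaphysis genotypes, as given below, and their part in this ratio was not tested.

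The enzyme genes were at the edge of detection. Cyp27b1, whose enzyme makes calcitriol (mm9 chromosome 10, 126485306 to 126490062), was above 0 in all 12 libraries and reached 1 RPKM in 0. It read 0.437, 0.0713 and 0.0300 RPKM in metaphysis WT and 0.150, 0.202 and 0.0915 RPKM in metaphysis cKO. In the diaphysis it read 0.0313, 0.127 and 0.238 RPKM in WT and 0.0887, 0.102 and 0.175 RPKM in cKO. The groups overlapped in both regions. With a transcript of 2443 bases, these values come to about 2 reads in the lowest library and 37.1 in the highest, metaphysis WT replicate 1, which held more than the other 2 WT libraries of that region together. The spread between libraries of 1 group exceeded the difference between genotypes.

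Cyp24a1, whose enzyme degrades calcitriol and which is widely used as a readout of receptor activity (mm9 chromosome 2, 170308208 to 170322645, minus strand), was listed at 0 in 10 of the 12 libraries. The exceptions were metaphysis WT replicate 3 at 0.0110 RPKM, about 1 read, and diaphysis cKO replicate 2 at 0.0150 RPKM, about 2 reads. A limit of 3 reads corresponds to 0.0156 to 0.0456 RPKM in these libraries, and every value was below the limit of its own library. The limit covers counting error only. All 3 metaphysis cKO libraries, in which Vdr was highest, listed Cyp24a1 at 0. No fold is given, since both genotypes were under the limit. Markers of kidney tubule, the main source of both enzymes, summed to at most 0.253 RPKM over those in the tables.

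Fits across all genes took those that reached 1 RPKM in 3 or more of a region's 6 libraries, and 3 of the 5 members did so in each region (Vdr, Rxra and Rxrb). In the metaphysis 11.4% of all tested genes passed an adjusted p of 0.05 in limma, and 1 of the 3 members, Vdr, was among them (not so with the spread taken from all 12 libraries, where its SE was 0.42). Metaphysis groups did not overlap for 37.1% of all tested genes, with cKO above WT for 18.7% and below for 18.4%, and for 2 of the 3 members, both above (Vdr and Rxra). In the diaphysis limma called 0.0% of genes (86 of 12540 at an unadjusted p under 0.05) and 0 members. Dlx3, the deleted gene, was not called there either. Diaphysis groups did not overlap for 3.03% of genes, with cKO above WT for 2.24% and below for 0.789%, and for 2 of the 3 members, Vdr and Rxrb, both above. In both regions at once that held for 0.868% of 12321 genes, Vdr among them. The members were chosen from these values, so nothing is read from these counts.

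Summed markers of bone and cartilage cells were, as Vdr was, higher in every metaphysis cKO library, while other lists went either way or overlapped. The 6 osteoblast markers summed to 8123 to 10710 RPKM in metaphysis WT and 12780 to 13670 RPKM in metaphysis cKO, with 5 of 6 above WT in every cKO library. The 4 osteocyte markers (Dmp1, Mepe, Sost, Phex) summed to 226 to 352 RPKM in WT and 393 to 571 RPKM in cKO, and 2 of 4 did not overlap. Of 6 osteoclast markers 5 were in the table, all 5 higher without overlap (2117 to 2686 against 3989 to 4545 RPKM). Chondrocyte markers summed to 607 to 856 RPKM in WT and 1247 to 1988 RPKM in cKO, 5 of 6 without overlap. Erythroid markers went the other way, 944 to 1142 RPKM in WT and 399 to 722 RPKM in cKO, with 6 of 6 lower in every cKO library. B lymphoid markers did so as well (293 to 369 against 190 to 228 RPKM, 5 of 6). Macrophage markers summed to 161 to 200.4 RPKM in WT and 222 to 265.5 RPKM in cKO, with 2 of the 6 in the table above WT and 2 below in every cKO library. Summed levels of neutrophil, skeletal muscle and adipocyte markers overlapped between genotypes. Of these, 0 of 6 neutrophil markers, 1 of 6 muscle markers (Myh1) and 2 of 6 adipocyte markers (Adipoq and Lep) were below WT in every cKO library. Lep was listed at 0 in 1 metaphysis library, cKO replicate 2, and no other marker in the tables from these lists was at 0 in a metaphysis library. Their part in the Vdr difference was not tested.

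In the diaphysis the same lists mostly overlapped between genotypes. Osteoblast markers summed to 2589 to 15520 RPKM in WT and 6249 to 8933 RPKM in cKO, with 0 of 6 above WT in every cKO library, and erythroid markers to 986 to 2170 and 1004 to 1389 RPKM. Summed osteocyte markers were the exception, at 127 to 472 RPKM in WT and 501 to 556 RPKM in cKO. Of these markers Mepe and Sost did not overlap between genotypes, while Dmp1 and Phex did. Vdr and the summed osteocyte markers were higher in every cKO diaphysis library than in every WT one. The summed osteoblast markers overlapped only through WT replicate 1, the lowest at 2589 RPKM. The sums of the other WT libraries lay above every cKO sum. Col1a1, the largest of these markers, read 1801, 8279 and 11230 RPKM in WT and 4998, 5972 and 5416 RPKM in cKO. The mean log2 of the 6 markers was 6.54, 8.44 and 8.91 in WT and 7.70, 8.54 and 8.23 in cKO. These means overlapped with and without WT replicate 1. The part of these cell types in the Vdr difference was not tested.

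Vdr was also set against these markers within each library, as its log2 value minus the mean log2 of the list. Against the 6 osteoblast markers it was -3.85, -4.27 and -4.28 in metaphysis WT and -3.21, -2.92 and -3.55 in metaphysis cKO. In the diaphysis it was -4.37, -5.07 and -4.61 in WT and -3.14, -3.71 and -3.06 in cKO. Vdr was higher relative to these markers in every cKO library than in every WT library of both regions. Against Pth1r, a receptor gene of the osteoblast lineage described with the pathway, the metaphysis genotypes did overlap. There the ratio of Vdr to Pth1r in RPKM was 0.394, 0.259 and 0.264 in WT and 0.381, 0.433 and 0.278 in cKO. In the diaphysis it was 0.369, 0.220 and 0.307 in WT and 0.383, 0.397 and 0.544 in cKO, without overlap. Against the 4 osteocyte markers the metaphysis values ran from -1.68 to -1.41 in WT and from -0.56 to -0.30 in cKO, without overlap. The diaphysis values ran from -2.59 to -2.08 in WT and from -2.23 to -1.39 in cKO, with overlap, so there the distance of Vdr to osteocyte markers did not separate the genotypes.

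**Figure D2:**
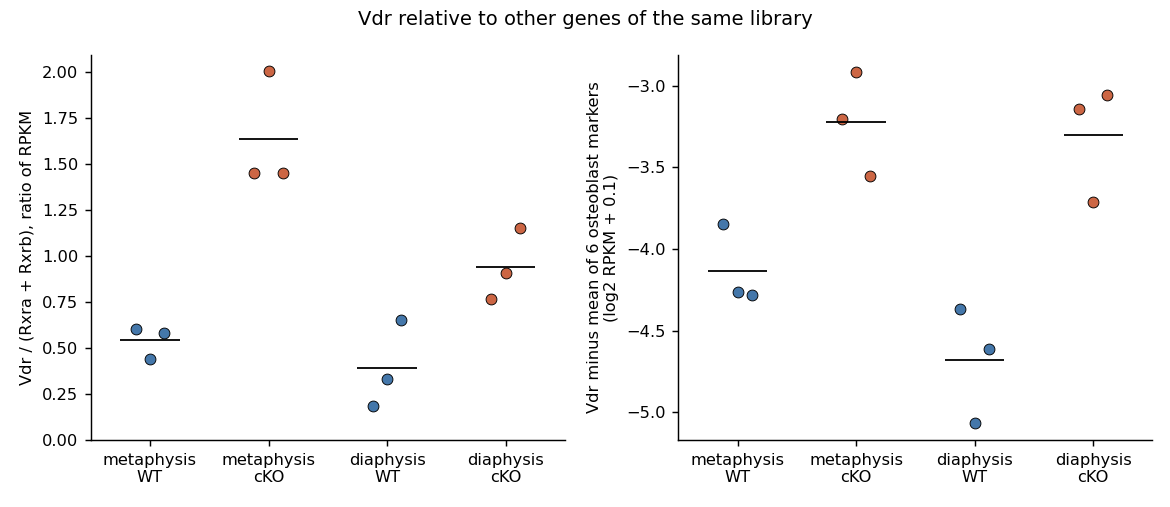
Vdr relative to other genes of its library: left, the ratio of Vdr to Rxra plus Rxrb in RPKM. Right, the log2(RPKM + 0.1) value of Vdr minus the mean of 6 osteoblast markers. Points are libraries (blue WT, red cKO) and lines group means, and in both panels all cKO points of a region lie above its WT points (ratios of 1.45 to 2.001 against 0.440 to 0.602 in the metaphysis).

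Beyond the members, 60 other genes of the pathway were followed in 5 lists, assembled with results of these data known. In the metaphysis 42 of them were tested, and 11 passed limma as higher in cKO, 0 as lower and 31 did not pass, where 7.51% of all genes were called higher and 3.89% lower. Their median log2 difference was 0.25 against -0.036 for all tested genes. All cKO values were above all WT values for 19 of the 42 and below for 3 (Med1, Smarca4 and Baz1b, each part of transcriptional or chromatin complexes). Over all tested metaphysis genes, the shares were 18.7% above and 18.4% below. Osteoblast and erythroid markers shifted in the same libraries as described, and their part in these counts was not tested. When the spread was estimated from all 12 libraries, 0 of the 42 passed, and without cKO replicate 3 it was 3. Counts without WT replicates 1, 2 and 3 were 4, 6 and 6, and without cKO replicate 2 the count was 7.

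Among 19 known targets of the receptor other than Cyp24a1, 12 were tested in the metaphysis. Of these 6 rose, 0 fell and 6 did not pass (median 0.43), where 7.51% of all tested genes were called higher and 3.89% lower. The list does not separate targets that the receptor raises from those it lowers, so these counts are not read as its activity. Spp1, which encodes the matrix protein osteopontin, read 1087, 1176 and 1153 RPKM in WT and 2354, 3687 and 2811 RPKM in cKO, a log2 difference of 1.35 ± 0.17 (SE, limma adjusted p = 0.0112). Enpp1, whose enzyme makes the mineralization inhibitor pyrophosphate, read 10.3, 11.3 and 10.2 RPKM in WT and 25.8, 34.4 and 27.8 RPKM in cKO (1.45 ± 0.12, limma adjusted p = 0.00554). In neither gene did the genotypes come near each other, and both kept their call in limma when any single library was left out.

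Ibsp, encoding bone sialoprotein and itself 1 of the osteoblast markers above, rose by 1.18 ± 0.18 (log2, SE, limma adjusted p = 0.0151). Cdkn1a, the cell-cycle inhibitor p21, rose by 0.91 ± 0.15 (adjusted p = 0.0161), and Ank, which exports pyrophosphate from cells, by 0.50 ± 0.097 (adjusted p = 0.0232). With 1 library left out in turn, Ank lost its call in 4 of 6 fits (without WT replicate 1, 2 or 3 or cKO replicate 3). Ibsp and Cdkn1a lost theirs in 2 (without WT replicate 1 or cKO replicate 3). Tnfsf11, the osteoclast differentiation factor that calcitriol induces in bone-forming cells, read 3.66, 2.37 and 3.81 RPKM in WT and 5.25, 5.78 and 5.27 RPKM in cKO. Its difference of 0.74 ± 0.19 (limma adjusted p = 0.0472) was lost as a call whichever of the 6 libraries was left out. Osteocalcin, a classic target, did not pass, at 0.035 ± 0.28 for Bglap and -0.0016 ± 0.23 for Bglap2, near-identical copies between which reads are uncertain. Targets of intestine and kidney (Trpv5, Trpv6, Calb1, Slc34a1) and the bone-derived hormone gene Fgf23 lay below the filter in both regions.

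Of the receptors for hormones that set vitamin D activation, 3 of 5 were tested and 2 rose, where 7.51% of all tested genes were called higher. Pth1r, the parathyroid hormone receptor, read 50.8, 51.3 and 64.8 RPKM in metaphysis WT and 134, 162 and 163 RPKM in metaphysis cKO, a log2 difference of 1.46 ± 0.13 (SE, limma adjusted p = 0.00554). Fgfr1, a receptor for fibroblast growth factors, Fgf23 included, rose by 0.82 ± 0.11 (adjusted p = 0.0117), a call lost without cKO replicate 3. Its coreceptor Kl and the calcium sensor Casr were below the filter, and Calcr, the calcitonin receptor, read 0.77 ± 0.36 without passing.

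Other nuclear receptors that pair with RXR, or belong to the same family, came next. Of 16 other receptors 11 were tested, 2 rose and 9 did not pass (median 0.28), where 7.51% of all tested genes were called higher. Rarg, a retinoic acid receptor, went from 16.6 ± 1.26 to 25.5 ± 4.07 RPKM (SD, n = 3; log2 0.61 ± 0.14 SE, limma adjusted p = 0.0336), and Ppard from 6.84 ± 0.429 to 9.44 ± 0.797 RPKM (0.46 ± 0.10, adjusted p = 0.0349). Both lost their call in 5 of the 6 fits that left out 1 library, all but that without cKO replicate 1, and also without the filter on low values. Rarg also lost it with the transcript of the highest mean. Rxrg, the remaining RXR gene, read 0.731 to 3.53 RPKM in the metaphysis with overlapping genotypes (-0.34 ± 0.51). The 13 coregulators, all tested, had a median log2 difference of -0.043, against -0.036 for all genes. Of 7 genes of synthesis and transport 3 were tested and 0 passed (Dhcr7, Cyp27a1 and Gc, the vitamin D binding protein, 0.81 ± 0.26, adjusted p = 0.0894). Only 1 of these 3 had an unadjusted p under 0.05. The liver hydroxylase gene Cyp2r1 was below the filter.

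**Figure D3:**
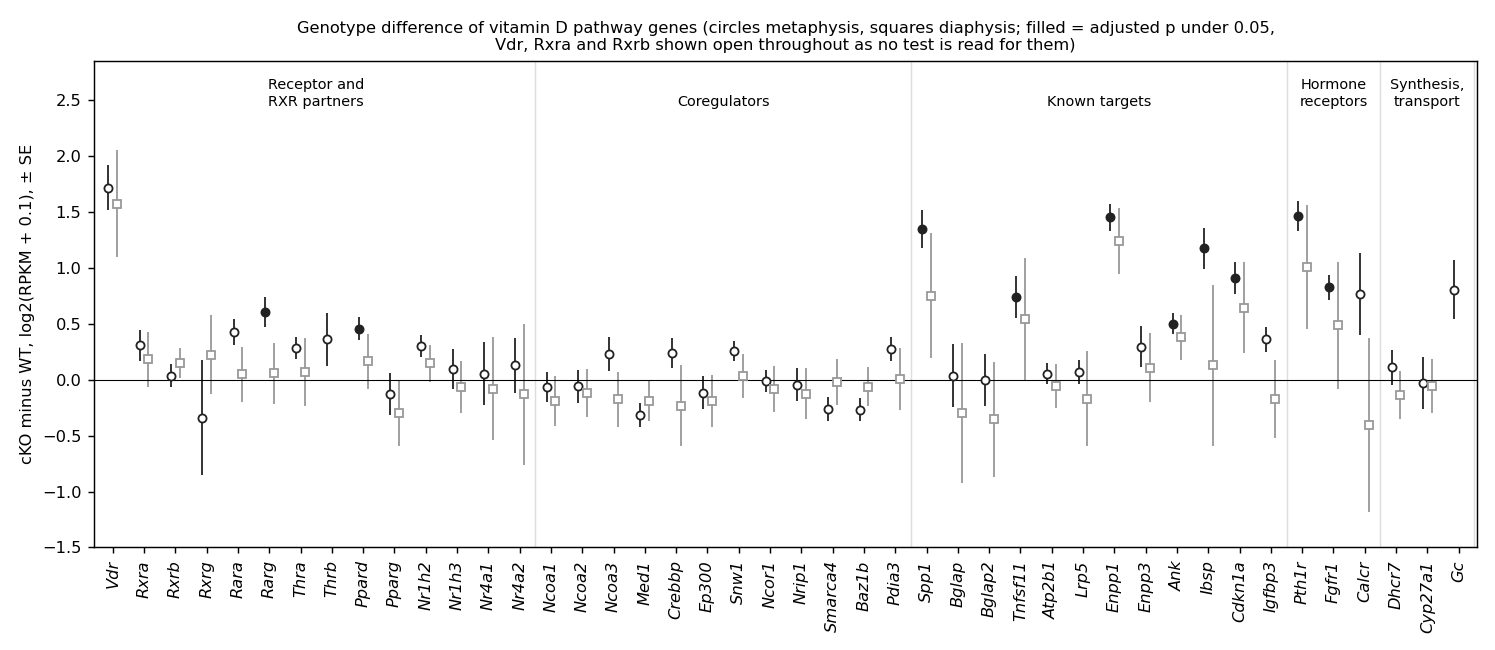
Genotype difference (cKO minus WT, log2(RPKM + 0.1), whiskers 1 SE) of tested pathway genes, grouped by role, in the metaphysis (circles) and the diaphysis (squares). Filled symbols passed limma at an adjusted p of 0.05, and Vdr, Rxra and Rxrb are drawn open because no test is read for them. Filled circles include 6 known targets, Pth1r, Fgfr1, Rarg and Ppard. No square is filled, as limma called no gene in the diaphysis, the deleted Dlx3 included.

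In the diaphysis 40 of the 60 genes were tested and limma called 0, as it called 0.0% of all genes (1 of the 40 at an unadjusted p under 0.05). Their median log2 difference was -0.055, against 0.0022 for all genes. The deleted gene Dlx3 was not called there either, at -2.52 ± 0.50 (log2, SE) without overlap. Over all genes 86 had an unadjusted p under 0.05 in limma, and 570 without WT replicate 1, again with 0 called. A count of 0 in this fit is therefore not read as an absence of differences. Only Enpp1, 1 of the 40, had all cKO values above all WT values, which held for 2.24% of all tested diaphysis genes. Enpp1 read 4.81, 8.41 and 11.1 RPKM in WT and 15.6, 19.3 and 20.1 RPKM in cKO (log2 1.24 ± 0.30, SE, and 0.91 ± 0.20 without WT replicate 1). Pth1r read 11.97, 46.5 and 63.5 RPKM in WT and 61.3, 71.5 and 66.1 RPKM in cKO, where 1 WT library exceeded 1 cKO library. Spp1 ranged from 261 to 1339 RPKM in WT and from 925 to 1298 RPKM in cKO. Replicate 1, the library with the low osteoblast markers, was the lowest WT library for all 3 genes.

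Whether the genotype effect differed between regions was tested by a contrast over all 12 libraries. Limma called 0.0% of 12321 genes (495 at an unadjusted p under 0.05) and 0 of 40 pathway genes. Without diaphysis WT replicate 1 it called 247 genes, 4 of them pathway genes with a larger difference in the metaphysis. These were Igfbp3, a binding protein for insulin-like growth factors (0.97 ± 0.18, log2, SE), Pth1r (1.18 ± 0.22), Fgfr1 (1.08 ± 0.23) and Rarg (0.87 ± 0.20). Their limma adjusted p-values lay between 0.0487 and 0.0493. A difference between regions for these 4 genes thus rests on leaving that library out.

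Last, genes were ranked by how closely their values tracked Vdr over the 12 libraries, by the root mean square difference of log2 values after the mean of each region was removed. Among 12318 genes, for which the median distance from Vdr was 0.98, the nearest were Tnfrsf11b, the decoy receptor for the Tnfsf11 product (0.24), Ptgis, prostacyclin synthase (0.26), the bone morphogenetic protein gene Bmp3 (0.29), the Wnt ligand gene Wnt10b (0.29) and the adhesion molecule gene Cadm1 (0.30). Enpp1 was 7th, Pth1r 15th and Spp1 24th in this order. Tnfrsf11b had means of 3.07 and 7.97 RPKM in metaphysis WT and cKO, and of 2.78 and 6.48 RPKM in diaphysis WT and cKO. Wnt10b had means of 3.56 and 12.3 RPKM in the metaphysis and of 4.89 and 10.6 RPKM in the diaphysis. These genes were chosen for their likeness, so their differences are not a separate result. All were measured in the same 12 libraries, whose globin share and bone markers varied as given above.

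The partners were ranked in the same way. Those of Rxra were Tom1l2 (0.065), Wsb2 (0.082) and Habp4 (0.082), where the median over all genes was 0.33. Those of Rxrb were Trabd (0.060), Unc50 (0.061) and Pygo2 (0.063), with a median of 0.23. A gene that hardly varies is near to many others, so these distances are not to be set against those of Vdr.

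**Figure D4:**
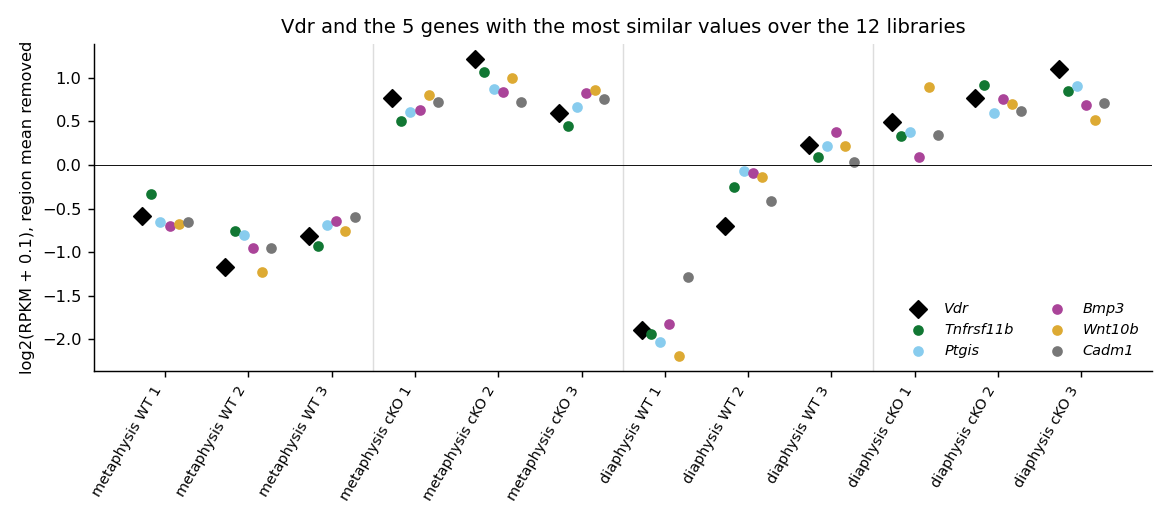
Log2(RPKM + 0.1) values with the mean of each region removed, for Vdr (black diamonds) and the 5 genes nearest to it (coloured circles) in each of the 12 libraries. All 6 genes are lowest in diaphysis WT replicate 1, and their metaphysis cKO values lie above their metaphysis WT values.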

How the data were processed

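Sequencing libraries of total RNA (TRIzol, TruSeq RNA kit, a kit that does not mark strand, so antisense reads are not separated) were described per the labels' protocols. The authors deposited RPKM values per RefSeq transcript and library, 1 table per region, per the file headers. Partek 6.6, CASAVA 1.8.2, Bowtie 0.12.7.0, TopHat 1.3.2 and build mm9 are named per the submitters' processing notes, without roles. For reads that several transcripts share, the assignment is not given in the sources used here.

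Members (5), pathway lists and markers were chosen with earlier results of these data known. Transcripts were summed per symbol, genes with at least 1 RPKM in 3 of 6 libraries were kept, and log2(RPKM + 0.1) was fitted per region in R 4.3.3 by limma 3.58.1 using its trend option, 2-sided, adjusted over all tested genes by Benjamini-Hochberg with a threshold of 0.05. The scale understates fold changes of low genes. A fit of 4 groups gave the difference between regions. Fits were tested on simulated data. Of the pathway genes, 1 is counted but not reported here. Genes named are the members, Dlx3, pathway genes (in full where past the threshold), and the 5 genes nearest to Vdr and 3 nearest to each other tested member. Replicate numbers follow record order and pair nothing, and 0 columns belonged to other samples. Depth came from low values, 72.7% to 77.6% of which came within 0.1 of whole reads (chance gives 20%), too few to rebuild counts. Positions are from Gencode M1 on mm9, and promoter sequences from RefSeq on GRCm38.p6, matched by symbol for 4 of 5 members (not Cyp24a1). Alternatives were another pseudocount, no filter, upper quartile scaling, rescaling without globins, the transcript with the highest mean, the spread from all 12 libraries, and each library left out.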

Additional observations from a re-analysis of the deposited data

How the results depend on the processing

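Vdr, Rxra and Rxrb kept the sign of their difference in both regions under each alternative, except Rxrb in the metaphysis (-0.10 with the transcript of the highest mean) and the values without 1 library given here. Those ranged over 1.53 to 1.85 (metaphysis) and 1.02 to 2.08 (diaphysis) for Vdr, 0.17 to 0.38 and -0.092 to 0.32 for Rxra, and -0.046 to 0.085 and 0.096 to 0.19 for Rxrb. The 1441 genes called in the metaphysis became 789 without the filter and 8 with the spread from all 12 libraries, and 105 (without cKO replicate 3) to 1418 with 1 library left out. The difference between regions gave 2 genes without the filter and 0 to 247 with 1 library left out (247 without diaphysis WT replicate 1), and 0 to 4 pathway genes. Pathway genes called in the metaphysis numbered 0 with the spread from all 12 libraries and 3 to 9 with 1 library left out. Of the 11, Enpp1, Spp1 and Pth1r were lost in that shared fit alone, and the sign of none changed. The causes were not tested. No paired analysis was possible because the labels give no replicate numbers that groups share. RPKM below 1 rests on few reads, which limits Cyp27b1 and Cyp24a1.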
